A study of Homo sapiens with 6 samples.

Results

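The noncoding genes examined here carry small nucleolar RNAs (snoRNAs) in their introns, and their RNA was followed in NALM6 cells treated with verteporfin or with DMSO. They are GAS5, SNHG1, SNHG5, SNHG6, SNHG8, SNHG12, SNHG15, SNHG16, ZFAS1 and EPB41L4A-AS1. They were chosen by gene symbol, all 10 were found, and they had 101 listed transcripts of the 61975 that could be assigned to a gene. After FPKM were summed per gene they made up 10 of 13494 genes, and all 10 were among the 12952 that averaged 0.5 FPKM or more over the 6 libraries and were tested. NALM6 is a human cell line established from an acute lymphoblastic leukemia of B-cell precursors, grown here in RPMI 1640 with 10% FBS. One group of 3 libraries came from cells kept for 48 h with verteporfin, a porphyrin known to block the binding of YAP to TEAD factors, at 0.6 mmol/L as the labels print it, a unit that nothing in the data could check. The other group of 3 libraries came from cells kept for 48 h with DMSO, the solvent, at a concentration that the labels do not give. The study asked which genes related to the Hippo pathway differ without and with the drug. Whether the replicates were separate cultures is not in the labels, so that the p-values reflect the scatter of these libraries alone, which may be technical.

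Host genes of this kind are transcribed and spliced, and the excised introns are trimmed into snoRNAs, which guide chemical modification of ribosomal and spliceosomal RNA. The spliced exons hold only short reading frames. For several of these RNAs, GAS5 best known among them, ribosomes that stop at an early stop codon send the RNA into nonsense-mediated decay, so that it accumulates when translation is blocked. Many host genes also begin with a pyrimidine tract of the kind found in messenger RNAs of the translation machinery. GAS5 was named for its accumulation in growth-arrested cells. SNHG5 was cloned at a translocation breakpoint of a human B-cell lymphoma.

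The libraries carried the marks of the labelled line. All 10 markers of B-cell precursors were listed, with means over the libraries of 23.0 FPKM (CD22) to 551 FPKM (IGLL1), while 11 of 12 markers of other cell types had no transcript listed and LYZ averaged 1.99 FPKM. The share of transcripts listed at 0 was 5.23% to 11.3% in the verteporfin libraries and 14.0% to 18.7% in the DMSO libraries, so detection of weak transcripts moved with the treatment. When the gene sums kept only transcripts above 0 in all 6 libraries, 0 of the 10 host RNAs were called and each kept the sign of its difference. The log2 fold change (verteporfin minus DMSO, on FPKM + 1) moved by over 1.5 times for SNHG12 (0.31, against 0.11), SNHG15 (0.30, against 0.10) and EPB41L4A-AS1 (-0.35, against -0.19). The depth of sequencing is unknown, since it cannot be read from FPKM. In bulk RNA, a change in how many cells express a gene and a change in the RNA per cell cannot be told apart.

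None of the 10 host RNAs passed the test. Limma on log2 of FPKM + 1, adjusted over all genes, called 0 of 10 at a threshold of 0.05, against 0.0154% of all genes tested (2 of 12952), with adjusted p values from 0.468 (SNHG16) to 0.964 (SNHG12). A fit that weighted the libraries called 3 of the 10 (GAS5, ZFAS1 and SNHG16) and 8.35% of all genes. At an unadjusted p under 0.05 limma gave 1 of the 10, SNHG16, against 8.84% of all genes. That count rested on the libraries used: it was 6 of 10 without verteporfin replicate 1, where 1926 of 12923 genes were past it, and 0 of 10 without verteporfin replicate 3, where 846 of 12882 were. In each of the 10 the verteporfin and DMSO libraries overlapped, while 6.49% of all genes were higher and 7.74% lower in every verteporfin library. The log2 fold change, verteporfin minus DMSO, was above 0 in 7 (50.7% of all genes) and below 0 in 3, with a median of 0.20 against 0.01 for all genes tested. The 10 together took 0.129% ± 0.0543 of all FPKM in verteporfin and 0.102% ± 0.0143 in DMSO (SD, n = 3 each), so the verteporfin libraries were spread more widely than the groups were apart.

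**Figure D1:**
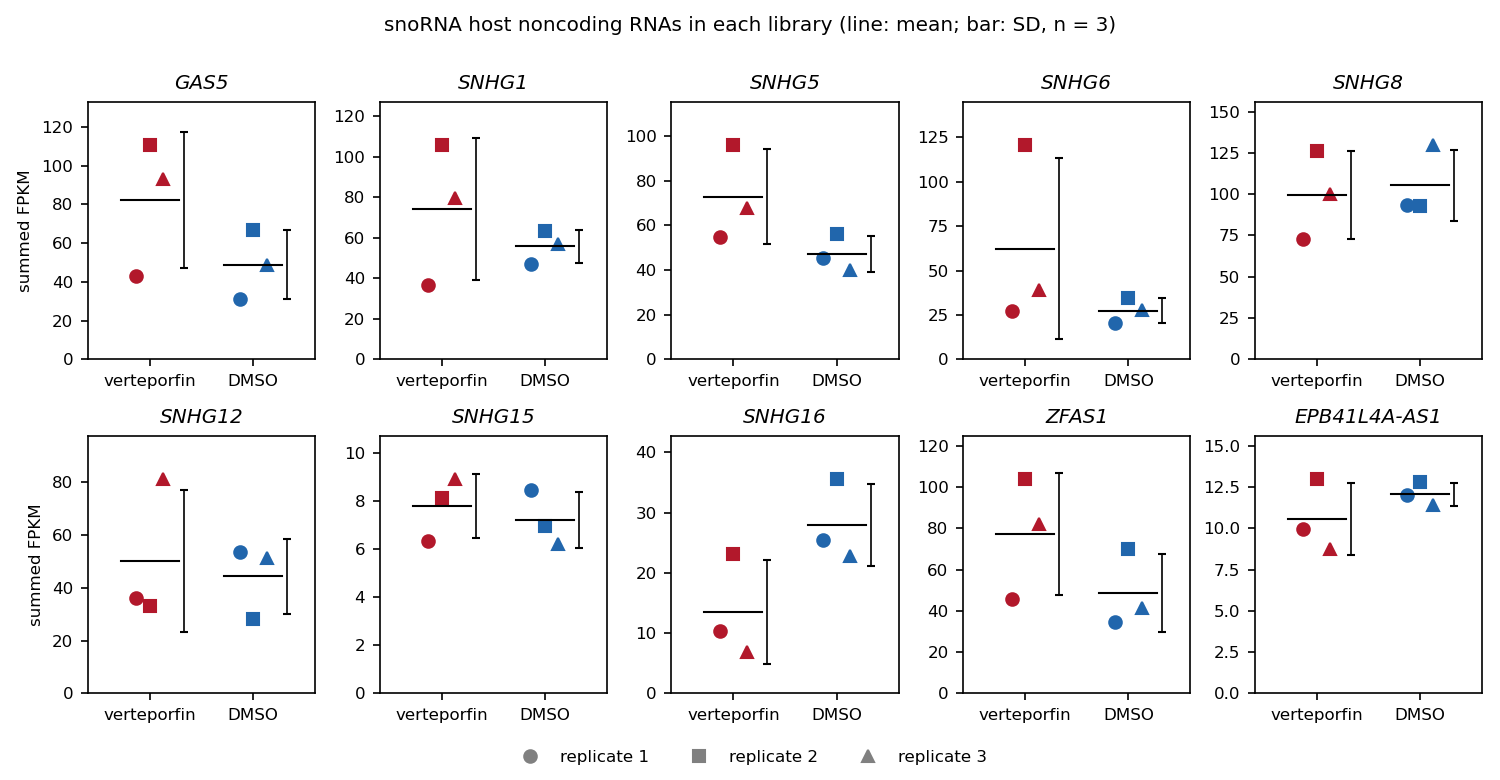
Summed FPKM of each host RNA (vertical axis, from 0, a scale of its own in each panel) in the 3 verteporfin (red) and 3 DMSO (blue) libraries, with marker shape giving the replicate number, the line the mean and the bar the SD. The groups overlap in every panel, and verteporfin replicate 2 is the highest of the 6 libraries in 6 of them.

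GAS5 (ENSG00000234741), whose RNA is also known to bind the glucocorticoid receptor, had 42.9, 111 and 93.2 FPKM in the verteporfin libraries, given in the order of replicates 1, 2 and 3 here and below, against 31.2, 67.0 and 48.7 FPKM in the DMSO libraries. A pair of verteporfin libraries lay above all DMSO libraries and replicate 1 among them. Its log2 fold change was 0.70, with a standard error of 0.40 and a 95% interval of -0.20 to 1.59 (adjusted p = 0.638 by limma). ZFAS1 (ENSG00000177410), a transcript that starts near the gene ZNFX1 on the opposite strand and hosts the SNORD12 family, had the same form, with 45.7, 104 and 82.3 FPKM in verteporfin and 34.5, 69.9 and 41.3 FPKM in DMSO. Its log2 fold change was 0.65 (95% interval -0.18 to 1.47, adjusted p = 0.638 by limma).

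SNHG5 (ENSG00000203875), host of the SNORD50 pair, came closest to a clean separation among those with higher means. It was at 54.7, 96.2 and 67.6 FPKM in verteporfin and 45.2, 56.0 and 40.1 FPKM in DMSO, so that verteporfin replicate 1 fell just under DMSO replicate 2. The log2 fold change was 0.59 with a standard error of 0.29 (95% interval -0.06 to 1.25, adjusted p = 0.587 by limma).

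SNHG6 (ENSG00000245910), host of SNORD87, had the largest ratio of group means and rested most on 1 library. It was at 27.1, 121 and 38.8 FPKM in verteporfin and 20.3, 34.3 and 27.6 FPKM in DMSO. Verteporfin replicate 2 was 4.45 times replicate 1. The log2 fold change of 0.89 (95% interval -0.19 to 1.96, adjusted p = 0.615 by limma) became 0.27 without verteporfin replicate 2 and 1.32 without verteporfin replicate 1.

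SNHG1 (ENSG00000255717), host of SNORD22 and of the SNORD25 to SNORD31 cluster, spanned the DMSO range from both sides. It was at 36.6, 106 and 79.4 FPKM in verteporfin and 47.0, 63.4 and 56.9 FPKM in DMSO, and its log2 fold change of 0.29 had a 95% interval of -0.55 to 1.12. Without verteporfin replicate 2 that value was -0.04.

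In the next 4 RNAs the means were close. SNHG8 (ENSG00000269893), the most abundant of the 10 and host of SNORA24, was at 72.8, 126 and 99.9 FPKM in verteporfin and 93.2, 92.7 and 130 FPKM in DMSO (log2 fold change -0.10, 95% interval -0.75 to 0.55). SNHG15 (ENSG00000232956), the least abundant and host of SNORA9, was at 6.34, 8.15 and 8.94 FPKM in verteporfin and 8.48, 6.96 and 6.21 FPKM in DMSO (0.10, 95% interval -0.60 to 0.80). EPB41L4A-AS1 (ENSG00000224032), host of SNORA13, was at 9.97, 13 and 8.75 FPKM in verteporfin and 12.0, 12.8 and 11.4 FPKM in DMSO (-0.19, 95% interval -0.86 to 0.47). Groups overlapped in each, and these intervals still include changes of more than 0.5 on the log2 scale. SNHG12 (ENSG00000197989), host of SNORD99 and of H/ACA snoRNAs, did not follow the others between libraries. It was at 36.0, 33.3 and 81.4 FPKM in verteporfin and 53.8, 28.1 and 51.3 FPKM in DMSO (0.11, 95% interval -0.77 to 0.98).

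The libraries within each group differed in the same order for most members. Among the verteporfin libraries replicate 2 was the highest for 8 of 10, and replicate 1 the lowest for 7. Among the DMSO libraries replicate 2 was the highest for 7. Over all genes tested verteporfin replicate 2 was the highest of its group for 40.3%, verteporfin replicate 1 the lowest for 45.3% and DMSO replicate 2 the highest for 46.6%, so these libraries also stood apart beyond the host RNAs. Single libraries moved several log2 fold changes by over 1.5 times. GAS5, at 0.70 with all libraries, was at 1.11 without verteporfin replicate 1, 0.43 without verteporfin replicate 2 and 0.41 without DMSO replicate 1. ZFAS1, at 0.65, reached 0.98 when verteporfin replicate 1 was left out and 0.40 when verteporfin replicate 2 was. SNHG5, at 0.59, was at 0.38 without verteporfin replicate 2. The values near 0 of SNHG1, SNHG8, SNHG12, SNHG15 and EPB41L4A-AS1 moved by as large a factor. GAS5, ZFAS1, SNHG5, SNHG6 and SNHG15 stayed above 0 whichever library was left out, SNHG15 by as little as 0.006. SNHG16 and EPB41L4A-AS1 likewise stayed below 0.

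FPKM are scaled to length, so levels can be ordered across genes. In verteporfin the order of mean levels was SNHG8, GAS5, ZFAS1, SNHG1, SNHG5, SNHG6, SNHG12, SNHG16, EPB41L4A-AS1 and SNHG15. Of the 9 neighbouring pairs in that order, SNHG12 and SNHG16 had ranges that did not overlap, and the ranges of the other 8 overlapped. In DMSO SNHG8 stood above SNHG1, and the order ran on through GAS5, ZFAS1, SNHG5, SNHG12, SNHG16 and SNHG6 to EPB41L4A-AS1 and SNHG15. There the ranges were apart for SNHG8 and SNHG1, for SNHG6 and EPB41L4A-AS1, and for EPB41L4A-AS1 and SNHG15.

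**Figure D2:**
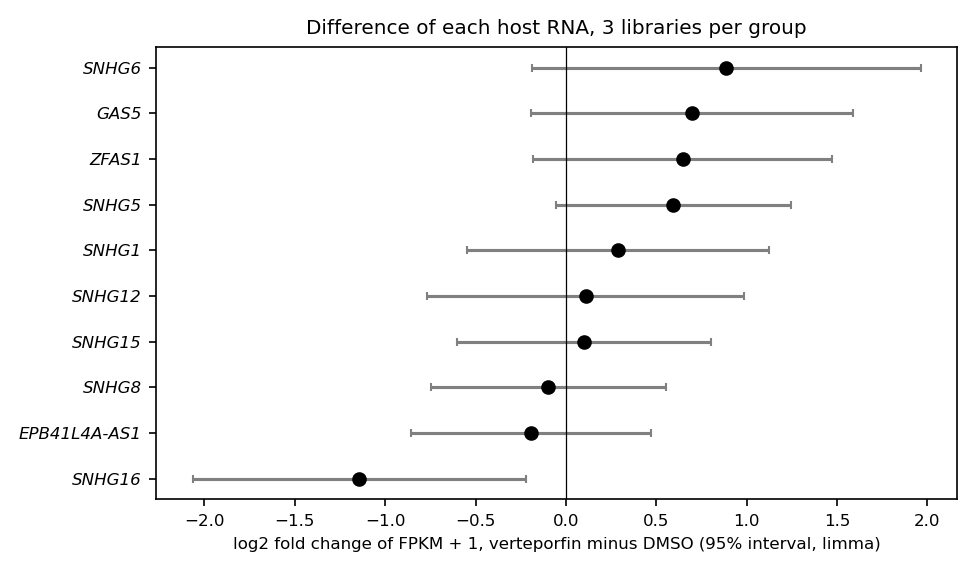
Log2 fold change of each host RNA on the scale of FPKM + 1 (horizontal axis, verteporfin minus DMSO), with the 95% interval from limma, 3 libraries per group. The interval of SNHG16 (-2.07 to -0.22) lies below 0 and those of the other 9 include 0.

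SNHG16 (ENSG00000163597), host of the SNORD1 family, had the largest log2 fold change of the 10 in size on the scale of FPKM + 1 and the opposite sign to most. It was at 10.3, 23.2 and 6.80 FPKM in verteporfin and 25.4, 35.6 and 22.8 FPKM in DMSO. Verteporfin replicates 1 and 3 lay below all DMSO libraries, and replicate 2 just above the lowest of them. The log2 fold change was -1.14 with a standard error of 0.42 (unadjusted p = 0.02, adjusted p = 0.468 by limma), and it ranged from -1.60 to -0.78 when single libraries were left out.

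The lower values of SNHG16 lay mainly in 1 transcript. ENST00000493536, which made up 50.1% of the gene over the libraries, was at 5.98, 2.46 and 0.660 FPKM in verteporfin and 18.1, 21.7 and 13.2 FPKM in DMSO. Every verteporfin library was below every DMSO library, with a log2 fold change of -2.42 (standard error 0.57, unadjusted p = 0.00282). It did not pass limma over the 55388 transcripts tested (adjusted p = 0.475). ENST00000590435, the next in abundance at 19.6% of the gene, was at 1.35, 13.7 and 1.78 FPKM in verteporfin and 1.13, 4.49 and 1.85 FPKM in DMSO (log2 fold change 0.51, adjusted p = 0.914 by transcript-level limma). The 5 SNHG16 transcripts other than the 1 annotated with a retained intron summed to 12.2 ± 8.25 FPKM in verteporfin and 25.4 ± 6.38 FPKM in DMSO (SD, n = 3 each). ENST00000493536 is among those 5.

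Both transcripts end exon 1 of SNHG16 with the same bases but continue into different exons, and the 30 bases on each side of that first junction are shown because they tell the form with lower values from the other. They were read from the GENCODE 29 transcripts (GRCh38, chromosome 17, plus strand), 5′ to 3′, with the last bases of exon 1 in lower case and the first bases of exon 2 in capitals.
ENST00000493536: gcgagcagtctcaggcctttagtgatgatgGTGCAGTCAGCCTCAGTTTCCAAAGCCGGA
ENST00000590435: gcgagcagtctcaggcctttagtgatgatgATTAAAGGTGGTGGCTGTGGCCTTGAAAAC
ENST00000493536 has 3 exons and skips the 99-base exon that ENST00000590435 takes next. Its last exon runs through 2225 bases without a break, while in ENST00000590435 an intron of 490 bases is removed from the same stretch. The sums and shares of single transcripts depend on how the authors' software shared reads among overlapping forms. The 2 forms share most of their bases, although exon 1 also has 88 bases in ENST00000493536 and 66 in ENST00000590435.

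Across all 10 host RNAs, 98 of the 101 listed transcripts were tested one by one, and 0 passed, against 0.0307% of all transcripts tested. At an unadjusted p under 0.05 limma gave 9 of 98, 7 with higher and 2 with lower values, against 6.55% of all transcripts. All verteporfin libraries lay above all DMSO libraries for 8 of the 98 and below them for 7, against 5.46% and 6.81% of all transcripts. The 8, and the 7 with higher values, include ENST00000442823 of EPB41L4A-AS1, which was listed at 0 in all 3 DMSO libraries. These counts are small and close to the shares of the whole table.

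**Figure D3:**
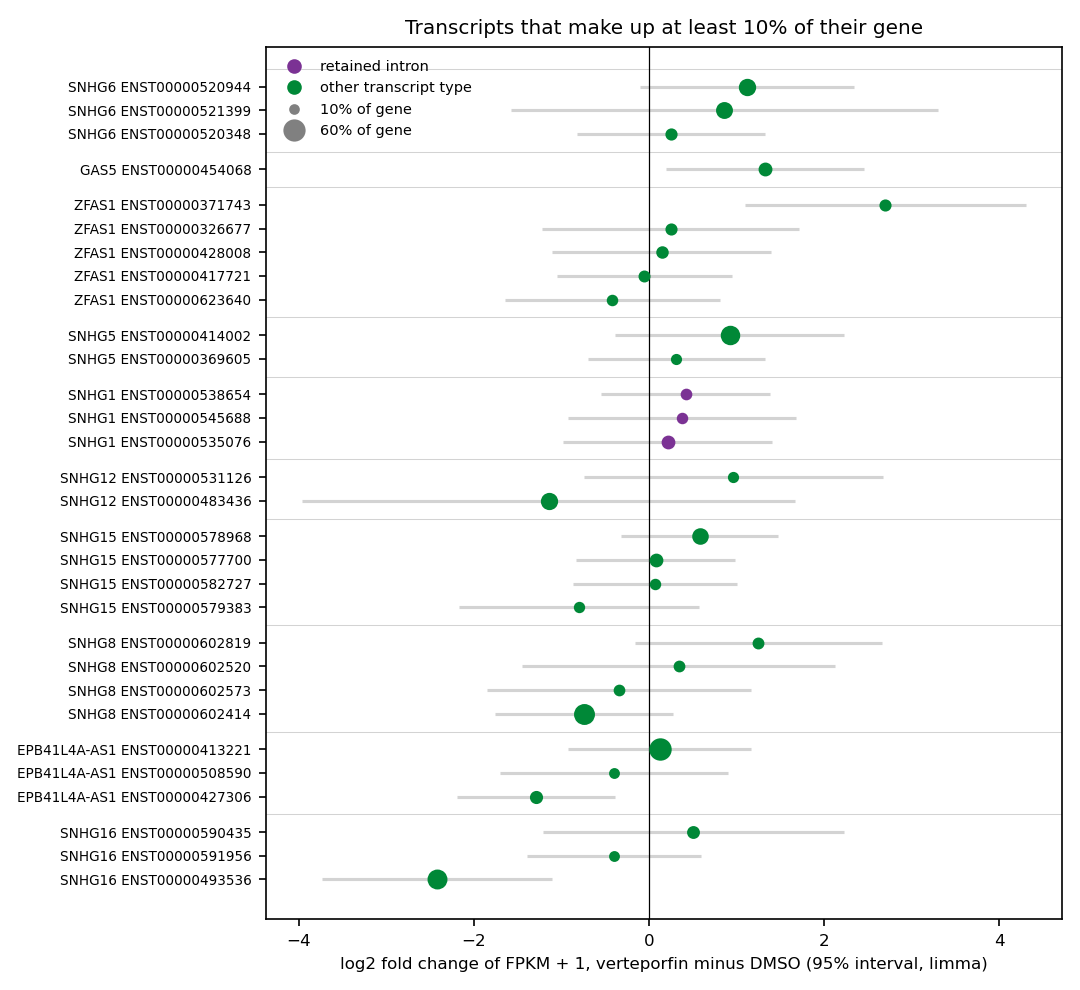
Log2 fold change on the scale of FPKM + 1 (horizontal axis, verteporfin minus DMSO) of the 30 transcripts that made up at least 10% of their gene, with 95% intervals from limma. Point size gives the share of the gene and colour the annotated type, and ENST00000493536 of SNHG16 (-2.42) and ENST00000371743 of ZFAS1 (2.70) lie farthest from 0.

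ZFAS1 was spread over many forms, and its higher mean lay mainly in 1 of them. ENST00000371743 was at 6.03, 13.6 and 37.1 FPKM in verteporfin and 0.403, 1.36 and 3.31 FPKM in DMSO, with a log2 fold change of 2.70 (standard error 0.70, adjusted p = 0.553 by transcript-level limma). The groups did not overlap, although the verteporfin libraries themselves spanned a wide range. The other 4 forms of at least 10% of the gene had log2 fold changes from -0.42 (ENST00000623640) to 0.25 (ENST00000326677).

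GAS5 had 22 listed transcripts, and only ENST00000454068 reached 10% of the gene, with 23.9%. It was at 12.2, 32 and 25.1 FPKM in verteporfin and 5.23, 10.8 and 8.77 FPKM in DMSO, without overlap (log2 fold change 1.33, standard error 0.49, adjusted p = 0.758 by transcript-level limma). SNHG8 had forms of opposite sign: ENST00000602414, with 54.4% of the gene, had a log2 fold change of -0.74 and ENST00000602819 one of 1.25 (adjusted p = 0.798 and 0.76 by transcript-level limma). Their gene sum of -0.10 thus joined forms that differed in sign, with groups that overlapped for both.

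In SNHG6 the high value of verteporfin replicate 2 came from ENST00000521399, at 72.9 FPKM there, against 2.04 and 6.61 FPKM in verteporfin replicates 1 and 3 and 3.31 to 8.77 FPKM in DMSO. ENST00000520944, the most abundant form, was at 18.4, 29.6 and 21.8 FPKM in verteporfin and 5.92, 21.4 and 7.46 FPKM in DMSO (log2 fold change 1.12, adjusted p = 0.758 by transcript-level limma). In SNHG5 the most abundant form, ENST00000414002, was at 17.7, 51.4 and 44.9 FPKM in verteporfin and 15.0, 32.9 and 11.2 FPKM in DMSO (0.92, adjusted p = 0.804). Neither form separated the groups.

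SNHG12 and EPB41L4A-AS1 also held forms that were listed at 0 in some libraries. ENST00000483436, the largest part of SNHG12, was listed at 0 in verteporfin replicate 1 and was at 14.3 and 36.4 FPKM in replicates 2 and 3, against 27.5, 7.96 and 23.2 FPKM in DMSO. In that same replicate 1 another SNHG12 form, ENST00000531126, was at 22.1 FPKM, against 1.66 to 3.40 FPKM in the other 5 libraries. The level of SNHG12 in verteporfin replicate 1 was thus listed under a different form. Whether this reflects how the software shared reads among overlapping forms was not tested. A second, whole-number entry for ENST00000531126, in a unit that is not given, was at 0 in that library. EPB41L4A-AS1 had ENST00000427306 at 0.547, 1.53 and 0.779 FPKM in verteporfin and 3.57, 2.85 and 4.76 FPKM in DMSO (log2 fold change -1.29, adjusted p = 0.658), and ENST00000442823 listed at 0 in all 3 DMSO libraries and at 3.34, 0.495 and 1.32 FPKM in verteporfin (1.305, adjusted p = 0.72, both by transcript-level limma). ENST00000427306 was lower in every verteporfin library, while ENST00000442823 entered the test only through the verteporfin libraries, so that its separation is no result.

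Intron-retaining and other forms were then compared, since it is the spliced RNA that is known to be subject to translation-dependent decay. Of the 101 listed transcripts 39 are annotated with a retained intron, from 6 of the genes. Among those tested, 17 of 38 with a retained intron had a log2 fold change above 0, with a median of -0.05, and so had 44 of 60 others, with a median of 0.29. Over all genes 46.7% of retained-intron transcripts (median -0.04) and 51.3% of others (median 0.02) were above 0. Transcripts of a gene share reads, so these counts are a description.

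The share of retained-intron forms was lower in verteporfin for GAS5 in every library. It was 37.7%, 46.0% and 37.0% of GAS5 in verteporfin and 58.6%, 52.2% and 58.8% in DMSO, a difference of -16.31 percentage points between the means. For SNHG6, with 1 such transcript, it was 2.06%, 6.06% and 7.71% in verteporfin and 11.5%, 10.5% and 10.5% in DMSO. That transcript itself was at 0.559, 7.31 and 2.99 FPKM in verteporfin and 2.34, 3.61 and 2.9 FPKM in DMSO. The other SNHG6 forms summed to 26.5, 113 and 35.8 FPKM in verteporfin and 17.9, 30.7 and 24.7 FPKM in DMSO. Both levels overlapped between the groups. A 2-sided exact permutation test gave p = 0.1 for both genes (0.24 after adjustment over the 6 genes), and with groups of 3 no lower p can be reached.

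For SNHG5, SNHG12 and SNHG1 the mean share was also lower in verteporfin, by -9.72, -8.47 and -4.21 percentage points, with overlapping groups (exact permutation p = 0.2 each). For SNHG16 it was 10.3% ± 4.22 in verteporfin and 9.15% ± 0.613 in DMSO (SD, n = 3 each). That share follows the annotation alone. ENST00000493536, the SNHG16 form with lower values in verteporfin, keeps the 490-base stretch that ENST00000590435 removes. It is not annotated with a retained intron and was counted among the other forms. The other forms of GAS5 summed to 26.7, 60 and 58.7 FPKM in verteporfin and 12.9, 32.1 and 20.1 FPKM in DMSO, and its retained-intron forms to 16.1, 51.0 and 34.5 FPKM in verteporfin and 18.3, 35.0 and 28.6 FPKM in DMSO. Both sums overlapped between the groups, so the separation lay in their proportion. Among all 5614 genes with both kinds of form, the share was lower in every verteporfin library for 6.31% and higher in every one for 6.06%, with a median difference of -0.04 percentage points. This comparison was chosen after the transcript values had been seen.

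**Figure D4:**
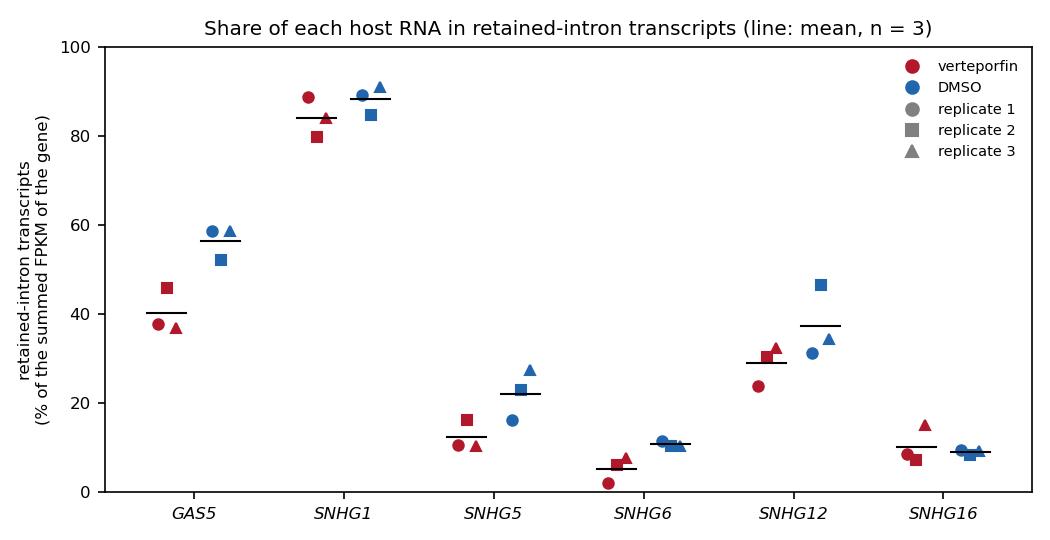
Share of the summed FPKM of each gene that lies in retained-intron transcripts (vertical axis, percent) in verteporfin (red) and DMSO (blue) libraries, with the mean as a line and marker shape giving the replicate number. In GAS5 the verteporfin libraries (37.0% to 46.0%) sit below the DMSO libraries (52.2% to 58.8%).

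In the RefSeq annotation (GRCh38.p14) the 10 genes enclose 36 snoRNA genes, 28 named as box C/D and 7 as box H/ACA, with 11 in GAS5 and 9 in SNHG1 and 1 each in SNHG6, SNHG8, SNHG15 and EPB41L4A-AS1. None of the 36 had a transcript among the FPKM values, so the levels of the snoRNAs themselves were not analysed here. GAS5, SNHG6, SNHG12 and EPB41L4A-AS1 overlap another gene (GAS5-AS1 and ZBTB37, MCMDC2, TRNAU1AP, and EPB41L4A). The library kit keeps strand, but whether counting used it is not given in the sources used here, so reads of such partners may not have been told apart.

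A pyrimidine-rich start is the sequence feature for which these genes are known, and the letters around the start were searched for it. RefSeq promoter sequence (GRCh38.p14) was matched for 8 of the 10, and SNHG6 and SNHG15 are named only. The motifs CTTTT and CTTTC, which share their first 4 letters, were searched from 10 bases before to 40 bases after the annotated start. On the transcribed strand 6 of the 8 held at least 1 of them, against 11.1% of all 35116 promoters, and on the opposite strand 1 of the 8 did, against 9.94%. The 4 below are shown from 20 bases before to 40 after the start, in the direction of transcription, with the motif in capitals. They show a motif at the first or second base, at the sixth base, and farther inside.
SNHG5: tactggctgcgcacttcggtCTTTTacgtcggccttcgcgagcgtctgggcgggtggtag
SNHG12: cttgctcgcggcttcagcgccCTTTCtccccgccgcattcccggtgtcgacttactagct
SNHG16: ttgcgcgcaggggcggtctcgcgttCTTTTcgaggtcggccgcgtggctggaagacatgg
GAS5: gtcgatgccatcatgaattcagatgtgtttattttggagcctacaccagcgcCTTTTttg
These windows are chr6:85678694-85678753 on the minus strand (SNHG5), chr1:28581834-28581893 on the minus strand (SNHG12), chr17:76557744-76557803 on the plus strand (SNHG16) and chr1:173869006-173869065 on the minus strand (GAS5). SNHG5 and ZFAS1 have the motif at the first base after the start and SNHG12 at the second, SNHG16 has it at base 6 and GAS5 at base 33, and in SNHG8 it begins 4 bases before the start. SNHG1 and EPB41L4A-AS1 have none in the window. The motifs can miss a pyrimidine-rich start, as in SNHG1, whose letters from the start on are ctcatttttctactgctc. They can also match without one, as in GAS5, whose letters from the start on are agatgtgttt. Whether the motif bears on the differences between verteporfin and DMSO was not tested. A match is a description of these letters, not of a site.

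Genes around these RNAs in the same pathways were read from 6 lists, and limma called 0 genes of any list. At an unadjusted p under 0.05 it gave 2 with higher and 3 with lower values of 18 other noncoding hosts, 2 of 33 protein-coding hosts, 0 of 21 decay factors, 1 of 10 other decay enzymes, 1 of 17 particle genes and 2 of 20 messenger RNAs with a pyrimidine tract, against 8.84% of all genes. Of 20 other snoRNA hosts named as noncoding, 1 of which (SNHG32) is annotated as protein-coding in GENCODE 29, 18 were tested, with 7 log2 fold changes above 0, 11 below and a median of -0.22. SNHG32 was at 81.8, 108 and 108 FPKM in verteporfin and 46.8, 72.3 and 45.4 FPKM in DMSO (log2 fold change 0.87, adjusted p = 0.436 by limma), and SNHG29 at 237, 291 and 270 FPKM in verteporfin and 119, 191 and 158 FPKM in DMSO (0.79, adjusted p = 0.453). SNHG4 was at 7.77, 26.0 and 19.5 FPKM in verteporfin and 30.3, 30.8 and 27.8 FPKM in DMSO (-0.86, adjusted p = 0.565). In these 3 the groups did not overlap. Of the 18, 2 were higher and 5 lower in every verteporfin library, against 6.49% and 7.74% of all genes.

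SNHG29 was the 1 gene of the lists with a transcript that passed over all transcripts. Its form ENST00000477249 was listed at 0 in the 3 DMSO libraries and was at 40, 60 and 47.5 FPKM in verteporfin (adjusted p = 0.0143 by transcript-level limma). With FPKM, a value of 0 can be a failed estimate rather than absence. It thus entered the test only through the verteporfin libraries. On log2 of FPKM + 1 the difference was 5.63, a size that depends on the added 1. The call was lost when any 1 library was left out, with differences of 5.48 to 5.765, and with a replicate block (adjusted p up to 0.19), and it held in the 5 other settings tried.

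Of 33 protein-coding snoRNA hosts 20 were above 0 and 13 below, with a median of 0.10. EEF2, elongation factor 2, was at 1790, 1430 and 1520 FPKM in verteporfin and 923, 884 and 983 FPKM in DMSO (log2 fold change 0.76, adjusted p = 0.488 by limma). The nucleolar protein gene NCL was at 128, 312 and 274 FPKM in verteporfin and 382, 355 and 406 FPKM in DMSO (-0.77, adjusted p = 0.563). Groups did not overlap in EEF2 or in NCL. Of the 33, 3 were higher and 3 lower in every verteporfin library, against 6.49% and 7.74% of all genes. The helicase genes EIF4A1 (-0.47) and EIF4A2 (0.08), the ribosome scaffold gene RACK1 (-0.12) and TPT1 (0.31) had overlapping groups.

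Of 17 genes for snoRNA-protein particles 3 were above 0 and 14 below, with a median of -0.22. FBL, the methyltransferase of box C/D particles, was at 163, 112 and 159 FPKM in verteporfin and 258, 193 and 241 FPKM in DMSO (log2 fold change -0.68, adjusted p = 0.518 by limma). NHP2 (-0.59, adjusted p = 0.563) and GAR1 (-0.57, adjusted p = 0.607), of box H/ACA particles, and NOP56 (-0.44, adjusted p = 0.706), of box C/D particles, had the same sign. FBL, NHP2 and NOP56 were lower in each verteporfin library, NOP56 only before rounding (149 FPKM on both sides), and GAR1 overlapped. Of the 17, 3 were lower and 0 higher in every verteporfin library, against 7.74% and 6.49% of all genes.

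Limma called none of the genes of nonsense-mediated decay. Of 21 tested, 13 were above 0 and 8 below, with a median of 0.04. UPF1, its central helicase, was at 69.3, 46.9 and 63.6 FPKM in verteporfin and 83.3, 60.2 and 87.7 FPKM in DMSO (log2 fold change -0.36, adjusted p = 0.746 by limma). SMG1, the kinase that phosphorylates UPF1, differed by 0.02 on the log2 scale (95% interval -0.73 to 0.78) and SMG5, a decay adaptor, one of -0.30 (95% interval -0.92 to 0.33). The largest values were those of the helicase gene DHX34 (-0.42), of NBAS (0.39) and of the junction complex gene RBM8A (-0.36). DHX34 and RBM8A were lower in every verteporfin library, 2 of the 21, against 7.74% of all genes, and NBAS overlapped.

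Of 10 other decay and processing enzymes 8 were above 0, with a median of 0.19. XRN1, the cytoplasmic exonuclease that degrades decapped RNA, was at 6.01, 13.7 and 12.4 FPKM in verteporfin and 3.39, 5.24 and 3.01 FPKM in DMSO, without overlap (log2 fold change 1.22, adjusted p = 0.424 by limma). It was the 1 of the 10 that was higher in every verteporfin library, and 0 were lower, against 6.49% and 7.74% of all genes. The exosome nuclease gene DIS3 (0.84, adjusted p = 0.575) and the decapping cofactor gene DCP1A (0.56, adjusted p = 0.653) had overlapping groups. Of 20 messenger RNAs with a terminal pyrimidine tract 12 were above 0 and 8 below, with a median of 0.14. EEF2, RACK1 and TPT1 of these 20 are also counted among the 33 protein-coding hosts. Of the 20, 2 were higher and 0 lower in every verteporfin library, against 6.49% and 7.74% of all genes. EEF1B2 (1.10, adjusted p = 0.518), EEF2 (0.76) and EIF3H (0.57, adjusted p = 0.747) had the largest values among them, and EEF1A1 was at 0.43 (adjusted p = 0.742).

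**Figure D5:**
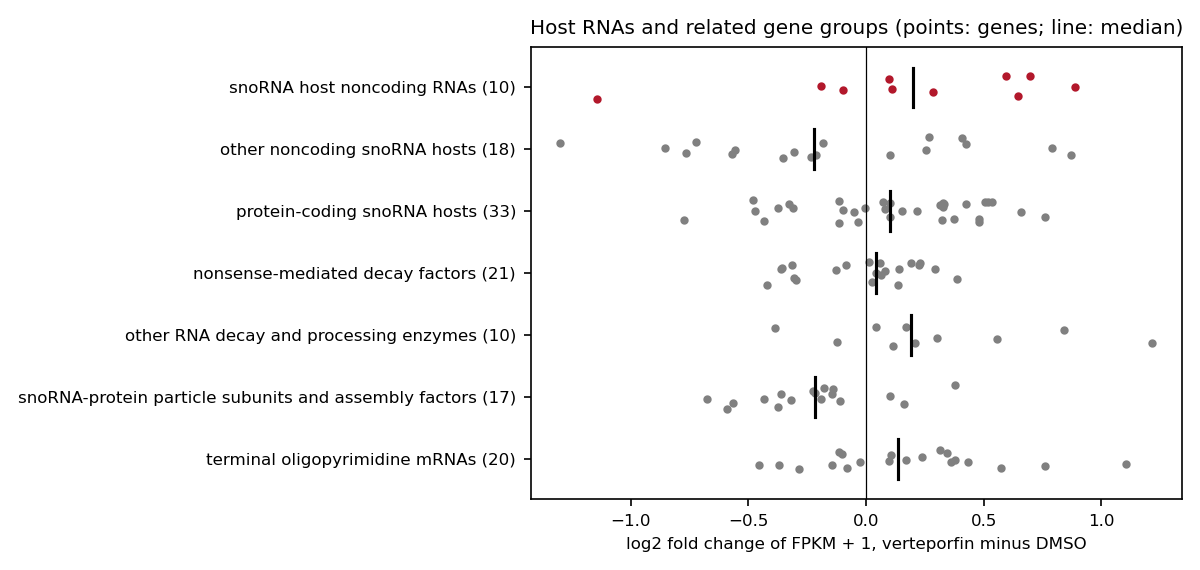
Log2 fold change on the scale of FPKM + 1 (horizontal axis, verteporfin minus DMSO) of each tested gene in the 10 host RNAs (red) and in 6 related lists (grey), with the median as a line and the number of genes in parentheses. The median is 0.20 for the host RNAs and between -0.22 and 0.19 for the lists.

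The members were also summarised by their mean profile over the 6 libraries. Verteporfin replicate 2 was the highest of the 6 for 6 of the 10, whereas the lowest library varied, with DMSO replicate 1 lowest for 3 and verteporfin replicate 1 for 2. Centred on the log2 scale, the mean profile of the 10 was -0.39, 0.55 and 0.13 in verteporfin replicates 1, 2 and 3 and -0.23, 0.06 and -0.11 in DMSO replicates 1, 2 and 3. SNHG1 lay nearest to it, at a root mean square distance of 0.20, and SNHG16 farthest, at 0.78. Among the 6344 other genes averaging 10 FPKM or more the 5 nearest were MTPN (0.04), PLAGL2 (0.05), BUD31, ARMC8 and TBL1XR1 (0.06 each). These 5 had log2 fold changes of 0.13 to 0.24, and the likeness rests on 6 points, the libraries from which the members also came.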

How the data were processed

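The deposited values are FPKM, computed by the authors per Ensembl transcript and library, per the file headers. HISAT2 2.1.0, StringTie 1.3.3, STAR, edgeR, cutadapt, FastQC and the build hg18 stand in the submitters' processing notes without roles or order. Of the identifiers, 61862 carry a suffix that marks annotation lifted to GRCh37, which leaves the build uncertain. Later entries with whole numbers (4765) were left out. GENCODE 29 matched 61975 of 62250 transcripts, and gene FPKM are sums over listed transcripts. Genes and transcripts averaging at least 0.5 FPKM over the libraries entered limma 3.58.1 in R 4.3.3 as log2 of FPKM + 1 (variance trend, 2-sided, Benjamini-Hochberg over all tested, threshold 0.05). Each listed transcript averages at least 0.5 FPKM in a group, so weaker ones are missing. Other minimums, pseudocounts, scalings, variance models, blocks and weights, and fits without single libraries, were tried as alternatives. A fold change on this scale understates the change of low genes. The test was tried on simulated data. Python 3.11.15 and pandas 2.3.3 did the rest. The members, lists and tests were chosen with earlier results of these data known. Named genes were all members, their transcripts of at least 10% of the gene, 12 fixed genes, the 3 largest changes per list at 5 FPKM or more, and the 5 genes nearest the members' profile; other transcripts were singled out by their values. A gene that this rule names among the protein-coding hosts is not reported here.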

Additional observations from a re-analysis of the deposited data

How the results depend on the processing

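Of 170 log2 fold changes of the 10 host RNAs under other settings 161 kept their direction and their side of the threshold. Those that turned sign were SNHG1 without verteporfin replicate 2 (-0.036), SNHG8 with quantile normalization (0.038), without verteporfin replicate 1 (0.11) or without DMSO replicate 3 (0.06), and SNHG12 without verteporfin replicate 3 (-0.30) or DMSO replicate 2 (-0.18). With single libraries left out SNHG1 ranged from -0.036 to 0.72, SNHG8 from -0.282 to 0.109 and SNHG12 from -0.295 to 0.338. The number of host RNAs called was 0 under each setting but library weights, which called 3: SNHG16 (-1.57, adjusted p = 0.012 by limma), ZFAS1 (0.89, adjusted p = 0.0472) and GAS5 (0.96, adjusted p = 0.04997). That fit gave verteporfin replicate 3 a weight of 3.88, against 0.416 and 0.363 for replicates 1 and 2, and its estimate stopped before convergence. It also called 3 other noncoding hosts, 2 decay enzymes and 1081 genes in all. The count over all genes was 0 with a pseudocount of 0.1 or 0.01, equal medians, no variance trend or without both libraries numbered 2, and 0 to 13 when single libraries were left out; the cause was not tested. With the replicate number as a block it was 84, with 0 host RNAs among them. At an unadjusted p under 0.05 that blocked limma fit gave 5 of the 10 host RNAs, against 2291 of 12952 genes. SNHG16 had the lowest adjusted p of the 10 in it, at 0.085. The labels do not say that equal replicate numbers share a culture or day, so the main fit did not take them as pairs. Deviations of same-numbered libraries correlated at 0.389, 0.509 and 0.098 over genes for replicates 1, 2 and 3. Those of differently numbered libraries correlated at -0.464 to 0.138. Deviations cancel out within each group of 3, so higher values for same-numbered libraries come with lower ones for the rest. The contrast between them is thus partly arithmetic. Verteporfin replicate 3 correlated best with DMSO replicate 1. Unknown depth limits weak transcripts most.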

Other observations

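Among the whole-number entries left out of the sums, 1 belongs to a host RNA. It is a second entry for ENST00000531126 of SNHG12, at 0, 7 and 2 in verteporfin replicates 1, 2 and 3 and at 4, 0 and 0 in DMSO, in a unit that is not given in the sources used here.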
